A study of Mus musculus with 6 samples.

Results

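The type I interferon response genes described here are a chosen list of 39 of the genes that cells switch on when interferon binds its receptor. Their levels were compared between resting splenic CD8+ T cells (CD8-TC) of WT mice and of mice lacking the transcription factor Runx3 (Runx3-/-). A listed gene was found by its symbol in the array's annotation and was represented by the brightest probe set that named no other gene. This gave a value for 37 of the 39 genes, and all 37 reached the array median in at least 1 array and were tested, among 9925 genes tested in all. Isg15, whose product is a ubiquitin-like tag attached to proteins during infection, was covered by a probe set that names several genes and is given no value. No probe set was matched to Ifi44. Of the 37 genes, 14 were higher in Runx3-/- cells, 1 was lower (Rsad2) and 22 did not pass the test. Over all 9925 tested genes, 5.63% were higher and 6.01% lower. Usp18, the enzyme that removes the Isg15 tag and damps signalling at the interferon receptor, had the largest rise of the 37, at 6.15-fold.

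The data comprise 6 Affymetrix mouse Gene 1.0 ST arrays, 3 per genotype, each from 1 male ICR mouse (an outbred stock) aged 6 weeks. WT mice carried Runx3 +/+ and the others Runx3 -/-, a genotype of the whole mouse, so that the loss was not limited to T cells. WT cells were taken on anti-CD8 beads, according to one label, and Runx3-/- cells were taken likewise and then sorted to clear dendritic cells carrying both CD11c and CD8. A different label describes FACS for every sample. The study's methods describe sorting of these T cells for the Runx3-/- mice only. By that account, this extra step and the genotype cannot be told apart. The Runx3 probe set gave signals of 7.09, 7.30 and 6.99 in WT mice against 7.06, 7.17 and 7.64 in Runx3-/- mice, and since its place relative to the deletion is unknown here, it does not check the labels.

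Type I interferons are secreted by infected cells and by specialised dendritic cells. They bind the receptor Ifnar1/Ifnar2, whose kinases Jak1 and Tyk2 activate a complex that holds Stat2 and Irf9, and this complex binds an interferon-stimulated response element (ISRE) near the genes it switches on. The products detect foreign nucleic acid, block translation, degrade RNA or trap viruses, and T cells carry the receptor and respond to interferon as other cells do.

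RefSeq promoters (build GRCm38.p6, from 250 bases before to 50 after a start site) were matched for 27 of the 39 genes and searched on both strands for the ISRE core, GAAANNGAAA, and for the RUNX motif, spelled as TGTGGT or as TGTGGC or as TGCGGT or as TGCGGC. The ISRE core was found for 11 of the 27 genes (40.7%), against 3.99% of all 27025 genes with a promoter of the same length in the table. The RUNX motif was found for 13 of the 27 (48.1%), against 48.7% of all genes. Among the 8016 tested genes with a promoter, 3.9% held the ISRE core and 54.4% the RUNX motif. No match of one motif overlapped a match of the other in these 27 genes, and a match is a description of the sequence only. The 250 bases before the start are printed for the genes with the largest rises among those with a matched promoter (Ifit2, Oasl2 and Ifit3) and for Rsad2, the gene that fell. They lie at chr19:34550444-34550693 on the plus strand for Ifit2 (the first of 2 starts), chr5:114896684-114896933 on the plus strand for Oasl2, chr19:34583279-34583528 on the plus strand for Ifit3 and chr12:26456453-26456702 on the minus strand for Rsad2. Each reads 5′ to 3′ towards its gene, and capitals mark the matches to either motif.
Ifit2: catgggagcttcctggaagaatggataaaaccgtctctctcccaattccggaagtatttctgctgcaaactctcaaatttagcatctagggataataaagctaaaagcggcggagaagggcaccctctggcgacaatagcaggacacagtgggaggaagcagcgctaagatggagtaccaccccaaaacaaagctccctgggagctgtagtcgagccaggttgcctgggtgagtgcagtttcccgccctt
Oasl2: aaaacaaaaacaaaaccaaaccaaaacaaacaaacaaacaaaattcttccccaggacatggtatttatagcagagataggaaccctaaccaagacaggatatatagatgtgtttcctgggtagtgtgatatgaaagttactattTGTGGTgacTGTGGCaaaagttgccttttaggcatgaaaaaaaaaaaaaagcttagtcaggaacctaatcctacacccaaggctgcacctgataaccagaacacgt
Ifit3: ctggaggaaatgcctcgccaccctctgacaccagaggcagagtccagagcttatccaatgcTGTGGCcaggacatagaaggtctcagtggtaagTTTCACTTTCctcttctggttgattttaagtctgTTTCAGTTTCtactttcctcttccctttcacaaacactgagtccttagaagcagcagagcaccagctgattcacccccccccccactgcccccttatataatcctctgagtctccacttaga
Rsad2: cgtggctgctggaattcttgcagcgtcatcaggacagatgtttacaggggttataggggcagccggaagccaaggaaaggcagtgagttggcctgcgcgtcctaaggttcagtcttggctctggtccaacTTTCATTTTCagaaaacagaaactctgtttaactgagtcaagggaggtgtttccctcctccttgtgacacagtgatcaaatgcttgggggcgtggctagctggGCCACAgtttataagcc
The stretch before Ifit3 holds 2 ISRE cores, which begin at positions -156 and -122 from the start, and a RUNX match that begins at -189. That before Oasl2 holds 2 RUNX matches and no ISRE core, and that before Ifit2 holds neither motif. Rsad2, whose level moved the other way, has both, with an ISRE core that begins at -120 and a RUNX match that begins at -17. Among the genes with a matched promoter, the ISRE core was found for 2 of 7 that rose and for 7 of 17 that were tested and did not pass.

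Values are RMA signals on the log2 scale, which measure a probe set's brightness. They are compared between arrays for the same gene, and differences are Runx3-/- minus WT with the SE of the difference from limma, a linear model fitted over all 9925 genes (n = 3 arrays per genotype). A gene was called higher or lower at an adjusted p under 0.05. By this rule 14 of the 37 interferon response genes were higher (37.8%), where 5.63% of all tested genes were, and 1 was lower, where 6.01% of all tested genes were. The signal of the 3 Runx3-/- arrays lay above that of the 3 WT arrays for 26 of the 37, against 17.4% of all tested genes, and below it for 1, against 16.2%. A change of at least 1.5-fold with an unadjusted limma p under 0.05 was met upwards by 12 of the 37 (3.12% of all tested genes) and downwards by 1 (4.96%). These cutoffs are those in the study's methods, which used the Partek software and a further rule on background signal. The difference was positive for 33 of the 37 (89.2%, against 51.1% of all tested genes). The median difference was 0.41 for the interferon response genes and 0.0062 for all tested genes. Oas2, Cmpk2 and Mx2 reached the array median in Runx3-/- arrays only, and none of these 3 passed the test.

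**Figure D1:**
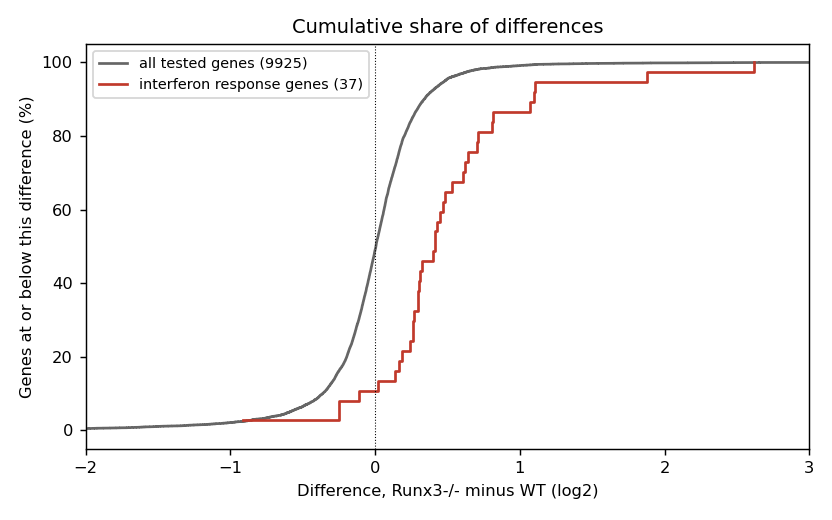
Cumulative share of genes (y axis, %) at or below a given difference between Runx3-/- and WT cells (x axis, log2), for the 37 interferon response genes and for all 9925 tested genes. The curve of the interferon response genes lies to the right of the other over most of its length, with medians of 0.41 and 0.0062, and starts at the fall of Rsad2 at -0.92.

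**Figure D2:**
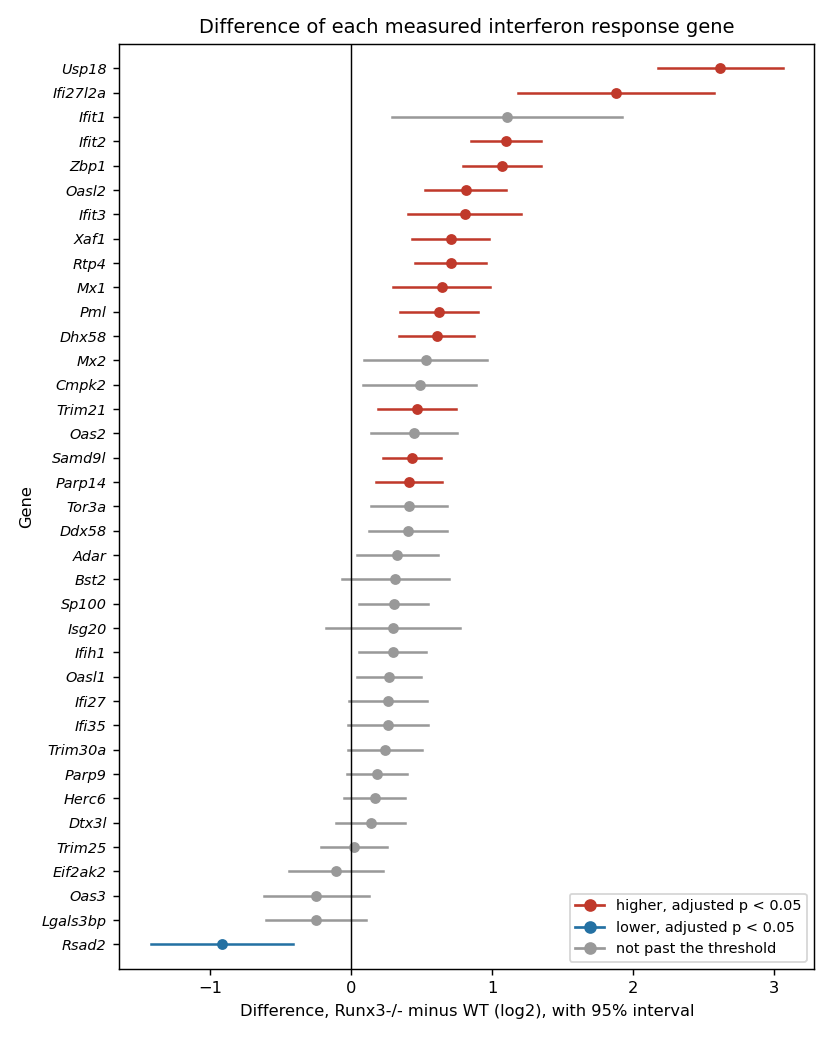
Difference between Runx3-/- and WT cells (x axis, log2) for each of the 37 measured interferon response genes, with its 95% interval from limma (n = 3 arrays per genotype). Differences run from 2.62 for Usp18 to -0.92 for Rsad2, and colours mark the 14 genes past the threshold upwards and the 1 downwards.

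Of the Isg15 system, 1 of 2 measured genes rose. Usp18 gave signals of 4.41, 3.81 and 4.54 in WT mice against 6.64, 7.05 and 6.93 in Runx3-/- mice. The groups were far apart, with more than 2 log2 units between the highest WT and the lowest Runx3-/- array. The difference was 2.62 ± 0.19 (limma adjusted p = 0.000138). Herc6, the ligase that attaches Isg15 in mice, did not pass (0.17 ± 0.09, adjusted p = 0.290).

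Among the IFIT proteins, which bind viral RNA that lacks the cap structure of host messages, and the kinase PKR (Eif2ak2), which halts translation on binding double-stranded RNA, 2 of 4 rose. Ifit2 gave signals of 5.26, 5.17 and 4.96 in WT mice against 6.12, 6.29 and 6.28 in Runx3-/- mice, a difference of 1.10 ± 0.11 (adjusted p = 0.000596). Ifit3, the next gene on chromosome 19 and a partner that stabilises Ifit1, gave signals of 4.80, 4.61 and 4.12 in WT mice against 5.41, 5.43 and 5.11 in Runx3-/- mice (0.81 ± 0.18, adjusted p = 0.0231). In both genes each Runx3-/- array was above each WT array, although Ifit3 was no longer past the threshold without Runx3-/- replicate 1 (adjusted p = 0.0647) or replicate 2 (adjusted p = 0.0836). Ifit1 gave signals of 4.44, 3.94 and 3.44 in WT mice against 5.03, 5.77 and 4.34 in Runx3-/- mice, so that its lowest Runx3-/- array was just below its highest WT array. Its difference was as large as that of Ifit2, at 1.11, but its SE was 0.36 and it did not pass (adjusted p = 0.0851). Eif2ak2 differed by -0.11 ± 0.15 (adjusted p = 0.680), and its sign depended on 1 array, since the difference was 0.0030 without Runx3-/- replicate 3.

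Of 6 sensors of nucleic acid and their regulators, 2 rose. Zbp1, which binds nucleic acid in the left-handed Z form and can trigger cell death, gave signals of 6.85, 6.46 and 6.50 in WT mice against 7.73, 7.63 and 7.67 in Runx3-/- mice. The 3 Runx3-/- arrays lay within 0.1 of each other and clear of WT, with a difference of 1.07 ± 0.12 (adjusted p = 0.00115). Dhx58 (LGP2), which tunes the RNA sensors Ddx58 (RIG-I) and Ifih1 (MDA5), rose by 0.61 ± 0.12 (adjusted p = 0.0137). This call was lost on leaving out WT replicate 1 or Runx3-/- replicate 2, with adjusted p of 0.0542 and 0.0515. The sensors themselves did not pass, with 0.40 ± 0.12 for Ddx58 (adjusted p = 0.0661) and 0.29 ± 0.10 for Ifih1 (adjusted p = 0.106). Adar, which edits adenosine in double-stranded RNA, differed by 0.33 ± 0.13 (adjusted p = 0.132). Trim25, a ligase that acts with RIG-I, differed by 0.02 ± 0.10 (adjusted p = 0.916), with a sign that turned under 3 of 18 alternative settings.

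The 2-5A synthetases make a short RNA messenger that activates the nuclease RNase L, and 1 of 4 measured genes of the family rose. Oasl2 gave signals of 3.495, 3.691 and 3.564 in WT mice against 4.185, 4.611 and 4.393 in Runx3-/- mice. Its groups did not overlap, although its WT level was close to the median of all probe sets of an array, and the difference was 0.81 ± 0.12 (adjusted p = 0.00532). Its neighbour Oasl1, known in mice as an inhibitor of Irf7 translation, gave signals of 3.91, 3.86 and 3.84 in WT mice against 3.99, 4.16 and 4.27 in Runx3-/- mice (0.27 ± 0.10, adjusted p = 0.123). Oas2 and Oas3, which lie side by side on chromosome 5, differed in sign. Oas2 gave signals of 3.03, 2.98 and 2.72 in WT mice against 3.32, 3.58 and 3.18 in Runx3-/- mice (0.45 ± 0.13, adjusted p = 0.0677). Oas3 gave signals of 4.76, 4.39 and 4.45 in WT mice against 4.43, 4.48 and 3.95 in Runx3-/- mice (-0.25 ± 0.16, adjusted p = 0.365). Neither of these passed, and the groups overlapped for Oas3.

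Among 3 enzymes acting on nucleotides or RNA, Rsad2 fell. Rsad2 (viperin) turns CTP into a nucleotide that stops viral RNA synthesis. It gave signals of 5.12, 4.19 and 4.37 in WT mice against 3.49, 3.81 and 3.64 in Runx3-/- mice. All 3 Runx3-/- arrays were below all WT arrays, WT replicate 1 stood above the other two, and the Runx3-/- levels were close to the array medians. The difference was -0.92 ± 0.22, or 1.89-fold lower, and its 95% interval ran from -1.42 to -0.41 (adjusted p = 0.0339 by limma). Without WT replicate 1 it was -0.64 (adjusted p = 0.0332), and without any 1 of the Runx3-/- arrays it was no longer past the threshold (adjusted p from 0.0710 to 0.0990). Cmpk2, the mitochondrial kinase that supplies CTP, is the next gene on chromosome 12 and differed in the other direction. It gave signals of 3.23, 2.92 and 2.87 in WT mice against 3.25, 3.87 and 3.35 in Runx3-/- mice, a difference of 0.49 ± 0.18 with an interval from 0.09 to 0.89 that did not pass (adjusted p = 0.113). Isg20, an exonuclease that degrades single-stranded RNA, differed by 0.30 ± 0.21 with overlapping groups (adjusted p = 0.395).

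Mx1 and Mx2 are GTPases that block incoming viruses in the nucleus and the cytoplasm, Bst2 (tetherin) holds budding viruses at the cell surface, and Samd9l restrains translation and growth. Mx1 rose by 0.64 ± 0.15 (adjusted p = 0.0315), from 3.57 ± 0.09 to 4.21 ± 0.31 (SD, n = 3). Samd9l rose by 0.43 ± 0.09 (adjusted p = 0.0199), from a level of 7.99 that was far above the array medians. Leaving out 1 array ended the call of Mx1 in 4 cases (WT replicates 1 and 2, Runx3-/- replicates 1 and 2), with adjusted p up to 0.0868, and that of Samd9l in 4 (WT replicates 1 and 2, Runx3-/- replicates 2 and 3), up to 0.0760. Mx2 differed by 0.53 ± 0.19 (adjusted p = 0.114) and Bst2 by 0.31 ± 0.17 (adjusted p = 0.265), both with overlapping groups. Bst2 is also carried by plasmacytoid dendritic cells.

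The 7 PARP, DTX3L, TRIM and nuclear body proteins had positive differences throughout, and 3 of them rose. Pml, the organiser of nuclear bodies, rose by 0.62 ± 0.12 (adjusted p = 0.0141, and 0.0538 without WT replicate 1). Trim21, a cytosolic antibody receptor and ubiquitin ligase, rose by 0.47 ± 0.12 (adjusted p = 0.0421), and Parp14, an ADP-ribosyltransferase, by 0.41 ± 0.10 (adjusted p = 0.0375). Trim21 and Parp14 were the 2 rises closest to the threshold. Both were lost on leaving out any 1 array other than WT replicate 3, with adjusted p up to 0.131 for Trim21 and 0.125 for Parp14. Sp100, a further nuclear body protein (0.30), Trim30a (0.24), Parp9 (0.18) and its ligase partner Dtx3l (0.14) did not pass, with adjusted p from 0.107 to 0.442.

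Of 7 other interferon-induced genes, 3 rose. Ifi27l2a, a small membrane protein gene, gave signals of 5.87, 5.12 and 4.43 in WT mice against 6.996, 7.164 and 6.896 in Runx3-/- mice. The WT arrays spread over more than 1 log2 unit and the Runx3-/- arrays over less than 0.3, and the difference was 1.88 ± 0.30, or 3.68-fold (adjusted p = 0.00674). Its neighbour and relative Ifi27 gave signals of 6.88, 7.12 and 7.07 in WT mice against 7.23, 7.15 and 7.49 in Runx3-/- mice (0.26 ± 0.12, adjusted p = 0.199). Xaf1, which antagonises an inhibitor of apoptosis, gave signals of 4.89, 4.56 and 4.95 in WT mice against 5.43, 5.56 and 5.53 in Runx3-/- mice (0.71 ± 0.12, adjusted p = 0.00795). Rtp4, a receptor transporter protein, gave signals of 6.23, 6.01 and 5.87 in WT mice against 6.70, 6.77 and 6.75 in Runx3-/- mice (0.71 ± 0.11, adjusted p = 0.00605). For Xaf1 and Rtp4 the groups did not overlap. Tor3a (0.41, adjusted p = 0.0591), an ATPase of the torsin family, and Ifi35 (0.26, adjusted p = 0.213) did not pass. Lgals3bp, a secreted glycoprotein, gave signals of 8.45, 8.44 and 8.39 in WT mice against 8.50, 8.19 and 7.84 in Runx3-/- mice (-0.25 ± 0.16, adjusted p = 0.342), so that it was bright in all arrays and its groups overlapped.

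**Figure D3:**
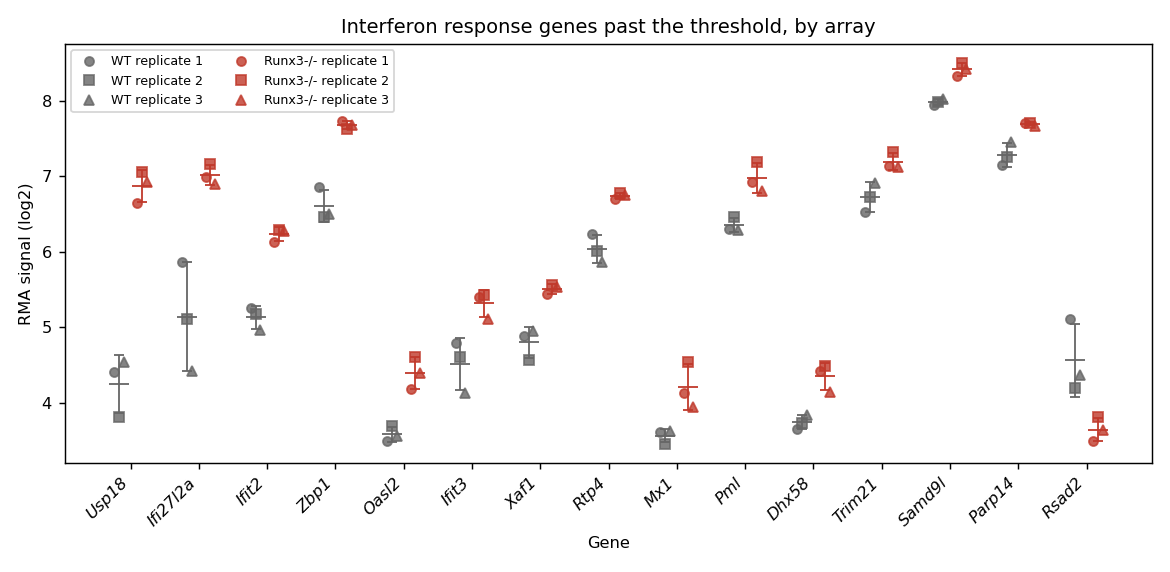
RMA signal (y axis, log2) of the 15 interferon response genes past the threshold (x axis) in each of the 6 arrays, with markers for the replicates and lines for the group mean and SD (n = 3). For the 14 genes that rose every Runx3-/- array lies above every WT array, and for Rsad2 every one lies below.

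Genes of the set that lie next to each other in the RefSeq order of protein-coding genes form 7 pairs, of which 5 had differences of the same sign. Since 33 of the 37 differences were positive, most pairs of these genes share a sign, adjacent or not. The pairs of opposite sign were Rsad2 with Cmpk2 and Oas2 with Oas3, described above. The pairs of the same sign were Ifit2 with Ifit3, Oasl2 with Oasl1, Ifi27l2a with Ifi27, Parp14 with Dtx3l, and Dtx3l with Parp9.

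The spread between mice was shared by many of the genes. The mean signal over the 37 genes was 5.73, 5.60 and 5.58 in WT mice against 6.08, 6.27 and 6.01 in Runx3-/- mice, while the median of all tested genes lay between 5.75 and 5.87 in all arrays. Every Runx3-/- array was thus above every WT array in this mean. Runx3-/- replicate 2 was the highest of its group for 30 of the 37 genes, against 43.6% of all tested genes, and replicate 3 the lowest for 20, against 48.2%. WT replicate 1 was the highest of its group for 20 of the 37, against 35.7% of all tested genes. The median SD over the 3 arrays of a group was 0.146 in WT and 0.159 in Runx3-/- cells for these genes, and 0.121 and 0.129 for all tested genes. Leaving out Runx3-/- replicate 2 or WT replicate 1 reduced the genes called higher from 14 to 8 in each case, while over all tested genes the calls upwards went from 559 to 234 and 256. The median difference of the 37 genes stayed between 0.334 and 0.454 under every alternative tried.

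**Figure D4:**
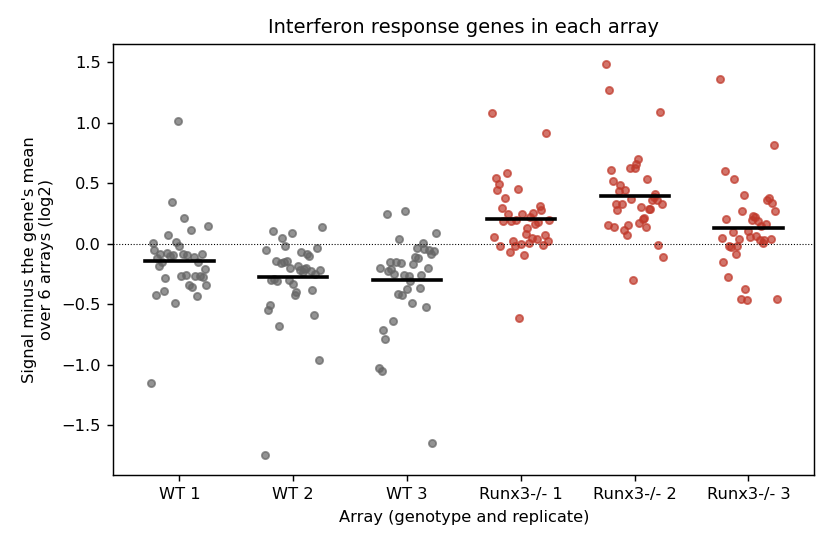
Signal of each of the 37 interferon response genes minus that gene's mean over the 6 arrays (y axis, log2) in each array (x axis), where points are genes and bars are means. The means of the 3 WT arrays lie below 0 and those of the 3 Runx3-/- arrays above 0, with Runx3-/- replicate 2 the highest.

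The interferon genes themselves were at the low end of the signal range. Of 14 type I interferon genes with a probe set, 11 were below the array median in all 6 arrays, Ifnb1 among them, which read between 2.66 and 2.93. The 3 that were tested (Ifna5, Ifna16 and Ifnz) did not pass the test by limma, 1 of them with an unadjusted p under 0.05 (Ifna16, 0.34 ± 0.13, adjusted p = 0.139). Ifna5 and Ifna16 reached the array median in Runx3-/- arrays only, and Ifnz in WT replicate 2 only. No probe set of the 14 exceeded 3.77 in any array.

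Of 13 tested genes of the receptor and its signalling, 4 rose and 1 fell. Stat2 gave signals of 6.42, 6.52 and 6.54 in WT mice against 7.12, 7.26 and 6.95 in Runx3-/- mice, and Irf9, its DNA-binding partner, gave signals of 6.75, 6.61 and 6.84 in WT mice against 7.29, 7.20 and 7.17 in Runx3-/- mice. Both genes had groups that did not overlap, with differences of 0.62 ± 0.11 (adjusted p = 0.00846) and 0.49 ± 0.10 (adjusted p = 0.0160). The receptor chain Ifnar1 rose by 0.49 ± 0.13 (adjusted p = 0.0424), while its partner Ifnar2 differed by -0.02 ± 0.09 (adjusted p = 0.909). Socs1, a feedback inhibitor of Jak kinases, rose by 0.50 ± 0.13 (adjusted p = 0.0473), and Ptpn6, the phosphatase SHP-1, fell by 0.42 on the log2 scale (adjusted p = 0.0211). Ifng, the type II interferon, which induces some of the same genes, gave signals of 3.03, 3.02 and 2.99 in WT mice against 3.59, 3.15 and 3.39 in Runx3-/- mice and did not pass (0.36 ± 0.12, adjusted p = 0.0918). Its signal reached the array median in Runx3-/- replicate 1 only.

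Of 14 tested genes of nucleic acid sensing upstream of interferon (sensors, adaptors, kinases and transcription factors), 3 rose and 1 fell. The sensors Tlr3, Tlr7, Tlr9 and Cgas did not pass. Irf7, the factor that amplifies interferon production and is itself induced by interferon, gave signals of 5.99, 5.90 and 5.96 in WT mice against 6.81, 7.19 and 6.87 in Runx3-/- mice, a difference of 1.01 ± 0.12 (adjusted p = 0.00144). Sting1, the adaptor for cytosolic DNA, rose by 0.52 ± 0.09 (adjusted p = 0.00916), and Ikbke, a kinase that acts on Irf3 and Irf7, by 0.65 ± 0.15 (adjusted p = 0.0265). Irf5, a factor best known from B cells and myeloid cells, gave signals of 5.85, 5.51 and 6.29 in WT mice against 4.37, 5.04 and 4.50 in Runx3-/- mice, a difference of -1.25 ± 0.23 (adjusted p = 0.0109). Irf7 and Irf5 thus moved in opposite directions, each with groups that did not overlap. Over the 3 lists of pathway genes, 7 of 30 tested genes rose and 2 fell, beside the 5.63% and 6.01% of all tested genes given above. Leaving out WT replicate 1 left 3 rises and 1 fall, leaving out WT replicate 2 left 4 rises, and the falls were 1 without WT replicate 3 or Runx3-/- replicate 2 and 0 without Runx3-/- replicate 3.

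**Figure D5:**
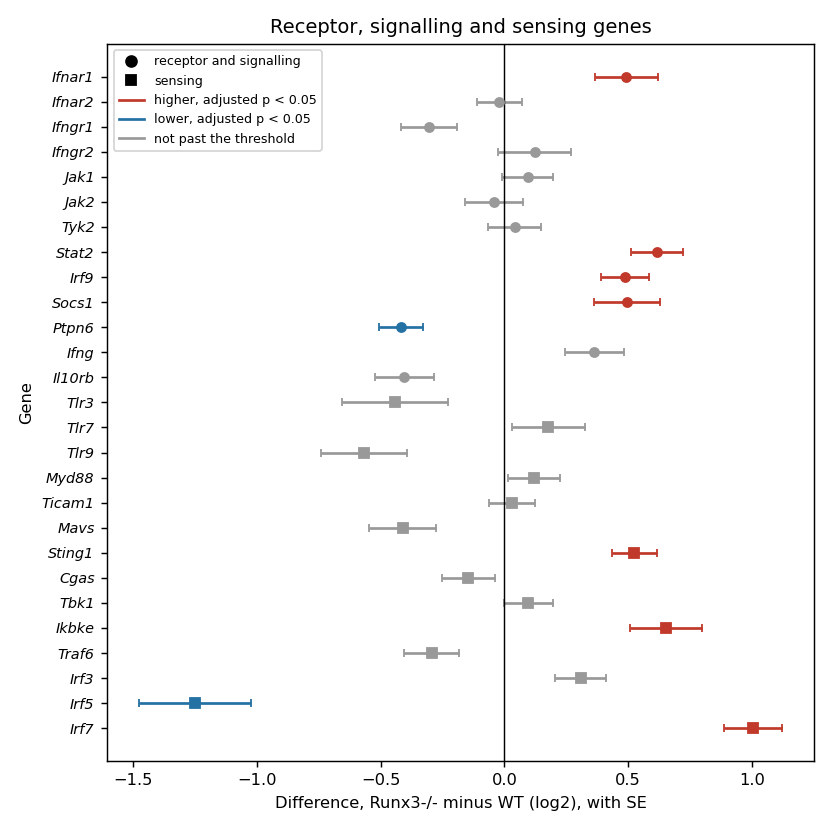
Difference between Runx3-/- and WT cells (x axis, log2, with the SE from limma, n = 3 arrays per genotype) for the 27 tested genes of interferon reception and signalling (circles) and of nucleic acid sensing (squares). The 7 genes past the threshold upwards include Irf7 at 1.01 and Stat2 at 0.62, and the 2 downwards are Irf5 at -1.25 and Ptpn6 at -0.42.

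Markers of other cells moved between the genotypes, and these are bulk samples, in which fewer cells of a type and less RNA per cell cannot be told apart. T cell markers were bright in both genotypes, with Cd8a at a mean of 11.10 in WT and 11.06 in Runx3-/- arrays. Of the 9 tested, none passed the test by limma (1 had an unadjusted p under 0.05, Cd5 at 0.24), which by itself does not check the cell label. Their summed linear signal was between 9125 and 10960 in WT and between 9918 and 11700 in Runx3-/- arrays. B cell markers were lower for 11 of 11, with a median difference of -2.29 and a summed linear signal of 1170 to 1822 in WT against 224.9 to 293.3 in Runx3-/- arrays. Macrophage and monocyte markers were lower for 12 of 13 (median -2.62), with sums of 2180 to 2212 in WT against 267.1 to 417.2. Erythroid markers were lower for 5 of 5 (median -2.86), with sums of 300.2 to 502.5 against 66.98 to 70.97. These 3 lists moved opposite to the 14 genes that rose and in the same direction as Rsad2 and Irf5. Their part in these results was not tested.

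Markers of plasmacytoid dendritic cells, a main source of type I interferon, summed to a linear signal of 402.5 to 711.1 in WT and 522.4 to 737.9 in Runx3-/- arrays. Ccr9, a chemokine receptor that T cells also express, made up 157.1 to 442.9 of this sum in WT and 337.4 to 428.8 in Runx3-/- arrays, and Siglech only 19.26 to 24.44 and 21.84 to 66.78. Ccr9 was the brightest of the 7 markers in every array. In WT replicate 3 it gave less than the other 6 together (157.1 against 245.5), and in the other arrays more. Without Ccr9, left out after its values were seen, the sums were 245.5 to 314.7 in WT and 185.0 to 310.2 in Runx3-/- arrays. Of the 7 tested, 1 was lower (Spib, -1.59, which B cells also express), and Pacsin1 lay higher in every Runx3-/- array without passing (0.48 ± 0.16, unadjusted p = 0.0154 and adjusted p = 0.0903 by limma). Siglech, a defining surface marker, gave signals of 4.27, 4.29 and 4.61 in WT mice against 4.82, 6.06 and 4.45 in Runx3-/- mice and did not pass (0.72 ± 0.35, adjusted p = 0.230). Runx3-/- replicate 2 was the highest of its genotype for 30 of the 37 interferon response genes, against 43.6% of all tested genes. It was the highest for 4 of 7 plasmacytoid dendritic cell markers, Siglech among them and Pacsin1 not. The same held for all 8 markers of conventional dendritic cells. The part of such cells in the levels of the interferon response genes was not tested. Markers of conventional dendritic cells summed to 335.6 to 656.8 in WT and 232.3 to 369.7 in Runx3-/- arrays, with 1 of 7 lower (Ciita, -1.30), a second at an unadjusted p under 0.05 (Clec9a, -0.86) and Zbtb46 below the array median throughout. Of 4 natural killer cell markers tested, none passed the test by limma or had an unadjusted p under 0.05, and the defining Ncr1, Klrb1c and Klra8 were below the array median in all arrays. Of 8 neutrophil markers, 5 were below the array median in all arrays and 2 of the other 3 were lower.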

How the data were processed

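Expression was measured in 6 samples, 3 WT and 3 Runx3-/-, grouped by sample title. Per the methods, the authors normalized the arrays in Partek Genomics Suite by RMA, with a GC correction, and deposited log2 values. The submitters' processing notes name both Partek and RMA. Tool versions: not given in the sources used here, nor is the genome build.

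GEO's platform annotation paired 21789 probe sets with 1 gene symbol and 1621 with several, and 11989 had none there. Of the single-gene probe sets, those at or above the array median in at least 1 array were kept, and the brightest stood for its gene (9925 genes). Differences were tested, two-sided, with limma 3.58.1 in R 4.3.3 (lmFit, eBayes, no covariates), with p-values adjusted over all tested genes by the Benjamini-Hochberg method at 0.05. The test was checked on simulated data. The number of arrays limits the precision, and signals close to an array's median may be near background, where a fold is understated.

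The interferon response genes, pathway and marker lists were chosen with earlier results of these data known. All interferon response genes are named, with values in every array for the 8 largest rises past the threshold, for the fall, and for relatives and neighbours of these, and up to 6 called genes of each pathway list are named. RefSeq tables (GRCm38.p6) served for gene order and promoters, and the array annotation's build was not compared with it. The alternatives were another array scaling, other filters, the mean of probe sets, other variance estimates, array weights, the methods' thresholds, leaving out each array, and a replicate block. The study's peak and gene lists were not used here.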

Additional observations from a re-analysis of the deposited data

How the results depend on the processing

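The median difference of the interferon response genes and all differences of the genes called higher or lower kept their direction under every alternative tried. The number called higher, 14, was 8 to 15 on leaving out 1 array (8 without WT replicate 1 and without Runx3-/- replicate 2), and 2 (Usp18 and Ifit2) without moderation of the variances, where over all tested genes 87 were higher and 95 lower, against 559 and 596. The number called lower, 1, was 0 without a filter on signal, without moderation and with the replicate block, and 0 to 1 on leaving out 1 array. Of the pathway genes, the 7 called higher became 1 without moderation, 3 at the methods' thresholds with or without it, and 3 to 6 on leaving out 1 array. The 2 called lower became 0, 1 and 0 to 2 in the same settings. Over all tested genes, leaving out 1 array gave 234 to 434 higher. Trim25 turned to -0.0052 with array weights and ran from -0.047 to 0.061 on leaving out 1 array (-0.047 without WT replicate 3, -0.031 without Runx3-/- replicate 2), and Eif2ak2 ran from -0.229 to 0.0030, the latter without Runx3-/- replicate 3. Leaving out an array removes samples from the fit, and for the other settings the cause was not tested. Deviations from the group means correlated at 0.177, 0.0319 and -7.91e-05 between arrays of the same replicate number. Other combinations of a WT and a Runx3-/- array gave -0.141 to 0.083. With 3 arrays per genotype, these values do not settle whether the replicate numbers pair the samples. With the replicate block 14 were higher and 0 lower. These were not the same 14 genes, since Mx1, Parp14 and Trim21 (adjusted p = 0.0622, 0.0589 and 0.0578) were no longer called and Ifit1, Oas2 and Tor3a (0.0453, 0.0448 and 0.0448) were, and Rsad2 had an adjusted p of 0.0694. Of the 22 genes not called, 6 passed under some alternative.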
